A study of Homo sapiens with 2 samples.

Results

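The genes described here are the partners, ligands and modulators of the HER2 receptor: the receptor genes EGFR and ERBB3, the ligand genes AREG, EREG, HBEGF, TGFA, BTC and NRG1, and the receptor inhibitor genes ERRFI1 and LRIG1. They were chosen by name, with earlier results of these data known. They are 10 of the 62699 genes in the table, and each matched a single gene ID. Polyadenylated RNA was sequenced from HCC1954, an established human breast cancer cell line with amplified ERBB2, the gene of HER2. By their genotype labels, 1 library was ASO-NC and 1 was ASO-1235. The series asks about the role of LINC01235, a long non-coding RNA, in these cells, and both groups are the same cell line. The labels give no dose, time or sequence of either agent, and the title of the ASO-1235 library carries the prefix Si.

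ERBB receptors are tyrosine kinases that signal as pairs. EGFR binds amphiregulin (AREG), epiregulin (EREG), TGF-alpha (TGFA), HB-EGF and betacellulin (BTC), ERBB3 binds neuregulins and has a weak kinase, and ERBB2, which has no known ligand of its own, is the preferred partner of the others. The ligands are made as membrane proteins and released by ADAM proteases. ERRFI1 (MIG6) binds and inhibits the receptor kinases, and LRIG1 promotes receptor degradation. In HER2-amplified breast cancer the ERBB2 and ERBB3 pair is a well known driver of growth.

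EREG and AREG are neighbours on chromosome 4, and both had a higher level in the ASO-1235 library. The 250 bases before the RefSeq start of each (GRCh38.p14, plus strand) are shown because the results turn on these genes. Capitals mark every match to 5 motifs searched on both strands: TATAAA, the cyclic AMP response element TGACGTCA, the AP-1 motif TGANTCA, the TEAD motif GGAATG and the NF-kB consensus.
EREG, chr4:74364895-74365144: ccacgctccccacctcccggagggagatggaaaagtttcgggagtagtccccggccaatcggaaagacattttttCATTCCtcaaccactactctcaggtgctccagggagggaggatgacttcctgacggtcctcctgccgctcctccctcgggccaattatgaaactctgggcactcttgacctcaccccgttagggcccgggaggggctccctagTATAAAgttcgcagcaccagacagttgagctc
AREG, chr4:74444886-74445135: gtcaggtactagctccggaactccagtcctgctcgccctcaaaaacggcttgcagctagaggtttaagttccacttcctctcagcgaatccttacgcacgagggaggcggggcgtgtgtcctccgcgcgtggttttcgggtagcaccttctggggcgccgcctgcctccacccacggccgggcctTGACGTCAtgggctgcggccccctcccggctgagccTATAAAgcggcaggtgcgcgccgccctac
Both held TATAAA, from base -32 in EREG and from base -29 in AREG, counted back from the base before the start, which is -1. TATAAA occurs in 10.7% of 35116 annotated promoter windows of this length. AREG held TGACGTCA from base -65, a motif found in 1.65% of windows. EREG held GGAATG on the opposite strand from base -175, found in 11.9%. BTC, also a ligand gene on chromosome 4, held 2 matches to the NF-kB consensus, found in 9.96% of windows, and no TATAAA in this window. The motifs were not confined to the ligands that were higher: of 13 member windows, 1 of EGFR held TATAAA from bases -146 and -36, 2 matches to TGANTCA (6.57% of windows) and GGAATG, LRIG1 held 2 matches to TGANTCA, and TGFA held 1 to the NF-kB consensus. These are matches of letters, not binding sites. Of the 10 members, 8 had a promoter in the RefSeq table.

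The libraries held 48092494 counts (ASO-NC) and 37916307 counts (ASO-1235). LINC01235 had 1337 counts in ASO-NC and 0 in ASO-1235. Each group is 1 library, so there is no replicate check and no p-value, and every difference is between these libraries. Counts were scaled by TMM, a method that centres the typical gene, and given as CPM. Ratios are ASO-1235 over ASO-NC with an exact 95% interval that covers counting error only and was computed on halved counts, since an excess of even counts (67.5% and 64.0% of genes with 1 to 1000 counts) points to both mates of a read pair being counted. Of the 8 breast epithelial markers checked, among them EPCAM and KRT8, all had at least 142 CPM in both libraries. Of 5 immune markers 1 reached 1 CPM (LYZ, 98 and 44 counts), of 5 fibroblast markers COL1A1 alone (2067 and 1559 counts), and of 4 endothelial markers VWF alone (345 and 249 counts). The summed level of the immune markers was 2.18 and 1.43 CPM, of the fibroblast markers 44.8 and 40.5 CPM, and of the endothelial markers 8.07 and 7.40 CPM. PDGFRB had 0 counts in both libraries, and PTPRC and PECAM1 had 0 in ASO-NC and 8 and 10 in ASO-1235. The part of other cells in the differences given here was not tested.

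EREG, AREG and BTC, ligand genes of EGFR, were higher in ASO-1235 by 1.55-fold to 2.87-fold, while the receptor genes EGFR and ERBB3 had ratios of 1.11 and 0.908. Of the 10 members, 8 reached 1 CPM in at least 1 library; HBEGF and NRG1 did not. EREG alone was at least 2-fold higher in ASO-1235 with an interval above 1, and 0 members were at least 2-fold lower. Over all 14352 genes at 1 CPM, 2.4% were called higher in that way and 0.495% lower. At 1.5-fold, EREG, AREG and BTC were higher and 0 members lower, against 5.2% of all genes higher and 2.0% lower. The members were chosen with earlier results of these data known, so these shares only describe them. With scaling by total count in place of TMM, 85.1% of all genes called at 1.5-fold were higher, against 72.2%. The median log2 ratio of the 8 members was 0.19, and 0.15 without EREG, against 0.00087 over all genes. With a trend on GC content and transcript length removed, these medians were 0.11, 0.06 and -0.015. With a minimum of 5 CPM the median over the 6 members left was 0.04. EREG passed the minimum only through the ASO-1235 library, so its place among the 8 is not independent of its difference. In bulk RNA, fewer cells expressing a gene and less RNA per cell cannot be told apart.

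**Figure D1:**
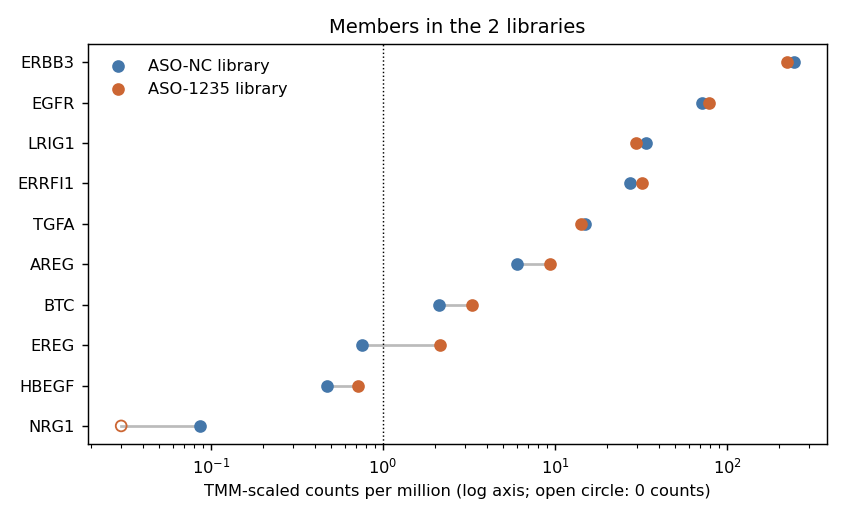
TMM-scaled CPM of each member on a log axis, 1 point per library, with the minimum of 1 CPM as a dotted line and 0 counts as an open circle. EREG goes from 0.750 CPM in ASO-NC to 2.15 CPM in ASO-1235, while the points of ERBB3, EGFR and TGFA lie close together.

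EREG encodes epiregulin, a ligand of EGFR and ERBB4. It (ENSG00000124882.4, chromosome 4, 74365143 to 74388751) had 35 counts in ASO-NC and 84 in ASO-1235, or 0.750 and 2.15 CPM. The ratio was 2.87 (1.61 to 5.34). It was among the 2871 weakest genes, with mean levels up to 3.11 CPM. Of those, 10.2% were called at least 2-fold higher, and their central 95% of log2 ratios ran from -0.98 to 1.84, a range that holds EREG's log2 ratio of 1.51.

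AREG encodes amphiregulin, a lower affinity EGFR ligand that breast epithelium uses for growth. The gene (ENSG00000109321.11, chromosome 4, 74445134 to 74455009) had 280 counts in ASO-NC and 363 in ASO-1235, or 5.996 and 9.30 CPM. Its ratio was 1.55 (1.24 to 1.95). AREG was among the 2870 genes next in level, up to 12.0 CPM, of which 6.72% were called at least 1.5-fold higher. The log2 ratio of 0.63 was within their central 95%, -0.61 to 0.83.

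BTC encodes betacellulin, which binds EGFR and ERBB4. It had 98 and 129 counts, or 2.10 CPM in ASO-NC and 3.30 in ASO-1235. The ratio of 1.57 (1.07 to 2.33) had a lower bound close to 1. BTC belonged to the 2871 weakest genes, where 15.0% were called at this size. With a trend on GC content and transcript length removed, its ratio was 1.42 (0.963 to 2.10) and the call was lost. That trend was 0.15 on the log2 scale for BTC, whose longest transcript has 40.2% GC, and 0.25 for EREG at 36.1% GC, but 0.02 for AREG at 45.3% GC.

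TGFA, the gene of TGF-alpha, went with none of them. It had 694 counts in ASO-NC and 552 in ASO-1235, or 14.9 and 14.1 CPM, a ratio of 0.951 (0.809 to 1.12). The interval includes 1, and the ratio was 1.01 with scaling by total count. HBEGF, which encodes heparin-binding EGF, had 22 and 28 counts, a ratio of 1.52 (0.642 to 3.70), so at this depth no difference could be seen or excluded. NRG1, which encodes the neuregulin that binds ERBB3, had 4 counts in ASO-NC and 0 in ASO-1235. This is close to the floor of 3 counts, 0.0768 CPM in ASO-1235, and no fold is given.

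The ligand genes outside the members were weak or undetermined. EGF, the name-giving ligand, had 263 and 272 counts, a ratio of 1.24 (0.966 to 1.58). NRG3 and NRG4, neuregulins that bind ERBB4, had 54 and 35 counts and 38 and 38 counts, with intervals that include 1. EPGN, the gene of epigen, had 28 and 18 counts, and NRG2 had 6 in each library. Of the 11 ligand genes, 7 reached 1 CPM, with a median log2 ratio of 0.31, and 3 of these 7, the members EREG, AREG and BTC, were called higher at 1.5-fold and 0 lower. The share called higher was 5.2% over all genes and 15.0% among the weakest, which hold EREG and BTC. EREG is among the 7 only through the library where it is high. With the GC and length trend removed 2 of 7 were called, and the median log2 ratio was 0.21. With a minimum of 5 CPM 1 of 3 was called.

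**Figure D2:**
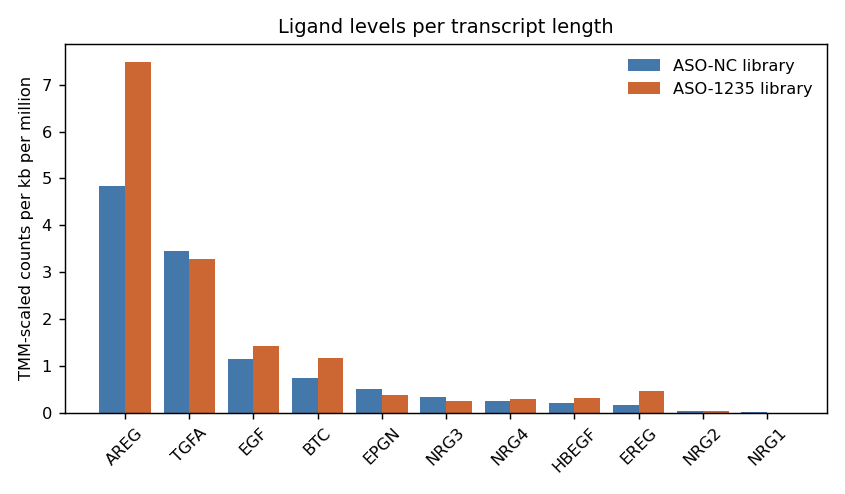
Bars show the level of each of the 11 ligand genes per length of its longest transcript, in TMM-scaled CPM per kilobase, for the 2 libraries. AREG and TGFA are the tallest in both, and AREG is taller in ASO-1235 while TGFA is not.

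Per length of the longest transcript, AREG was the most abundant ligand transcript in both libraries. Its level was 4.84 CPM per kilobase in ASO-NC and 7.50 in ASO-1235, and that of TGFA was 3.45 and 3.28. AREG made up 41.5% of the summed level of the 11 ligands in ASO-NC and 49.6% in ASO-1235, and TGFA made up 29.6% and 21.7%. EREG had 1.39% and 3.08%. Within a library the ratio of 2 genes does not depend on the scaling. The level of AREG over that of TGFA was 1.40 in ASO-NC and 2.29 in ASO-1235, a change of 1.63 (1.23 to 2.16, exact conditional interval on halved counts). The change of EREG over TGFA was 3.02 (1.61 to 5.53), of BTC over TGFA 1.65 (1.09 to 2.55), and of EREG over AREG 1.85 (0.961 to 3.46). BTC over AREG changed by 1.02 (0.649 to 1.61). These were among 10 pairs chosen after their values were seen, and none was corrected for the trend on GC content and length.

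Receptor transcripts differed little between the libraries. EGFR (chromosome 7) had 3324 counts in ASO-NC and 3074 in ASO-1235, or 71.2 and 78.7 CPM, a ratio of 1.11 (1.03 to 1.19). ERBB3 (chromosome 12) had 11400 and 8656 counts, or 244 and 222 CPM, a ratio of 0.908 (0.873 to 0.945). Both ratios kept their side of 1 under each setting tried, but an interval came to include 1 in 1 setting each: EGFR was at 1.04 (0.972 to 1.12) once corrected for GC content and length, and ERBB3 at 0.963 (0.926 to 1.002) with scaling by total count. Over all genes, 22.8% had an interval above 1 and 23.0% below 1. Free of scaling, the level of EGFR over that of ERBB3 changed by 1.22 (1.12 to 1.32), from 0.176 to 0.214. It was not corrected for GC content and length, whose trend was 0.09 on the log2 scale for EGFR and -0.04 for ERBB3. ERBB2 had 4860 and 4628 CPM, and ERBB3 over ERBB2 changed by 0.954 (0.916 to 0.993). ERBB4 had 147 and 139 counts, a ratio of 1.13 (0.803 to 1.59).

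The receptors stood far apart in level. Per length ERBB2 took 95.3% of the summed level of the 4 receptor genes in ASO-NC and 95.4% in ASO-1235. It exceeded ERBB3 by 23.9-fold and 25.1-fold and EGFR by 136-fold and 117-fold. ERBB3 was the most abundant member, at 41.2 CPM per kilobase in ASO-NC and 37.4 in ASO-1235. In ASO-NC it was followed by ERRFI1 (8.75), EGFR (7.25), LRIG1 (6.36), AREG (4.84), TGFA (3.45), BTC (0.745), HBEGF (0.197), EREG (0.162) and NRG1 (0.0144). Of neighbours in that order, HBEGF and EREG alone had overlapping counting intervals. In ASO-1235 the order was ERRFI1 (10.4), EGFR (8.02), AREG (7.50), LRIG1 (5.58), TGFA (3.28), BTC (1.17), EREG (0.466) and HBEGF (0.301). AREG stood above LRIG1 there, its interval of 6.45 to 8.67 overlapping that of EGFR, 7.62 to 8.43, and EREG and HBEGF overlapped as well.

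The inhibitor genes differed by small amounts in opposite directions. ERRFI1, itself a target of receptor signalling, had 1268 counts in ASO-NC and 1256 in ASO-1235, or 27.2 and 32.2 CPM, a ratio of 1.18 (1.06 to 1.32). LRIG1 had 1570 and 1151 counts, or 33.6 and 29.5 CPM, a ratio of 0.877 (0.786 to 0.977). After removal of the trend on GC content and length, both intervals included 1, at 1.11 (0.996 to 1.25) for ERRFI1 and 0.937 (0.840 to 1.04) for LRIG1. With scaling by total count LRIG1 was at 0.930 (0.834 to 1.04). The level of ERRFI1 over that of LRIG1 changed by 1.35 (1.15 to 1.58), from 1.37 to 1.86. This change was not corrected for that trend, which was 0.09 on the log2 scale for ERRFI1 and -0.10 for LRIG1. An antisense gene that overlaps ERRFI1 (ENSG00000284747) had 34 and 70 counts, and without a known strand setting its reads cannot be told from those of ERRFI1. The LRIG1 relatives LRIG2 and LRIG3, named after their values were seen, had ratios of 1.18 (1.03 to 1.35) and 0.904 (0.778 to 1.05).

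**Figure D3:**
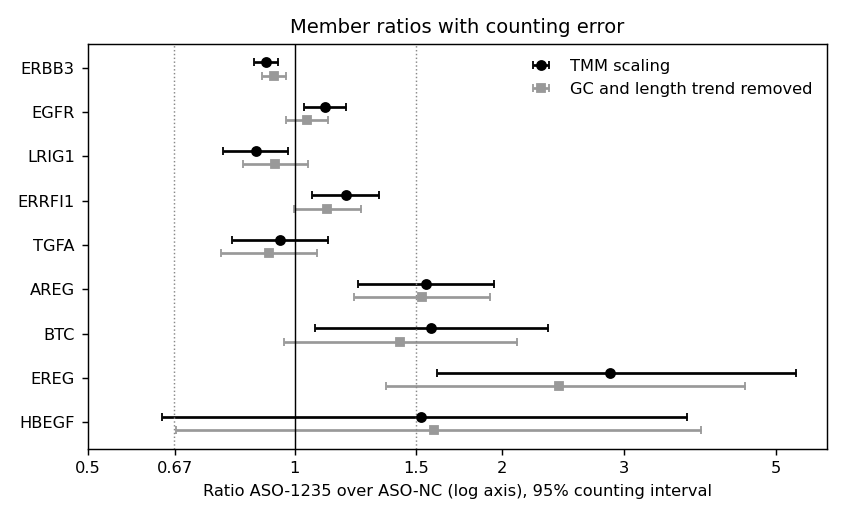
Ratio ASO-1235 over ASO-NC on a log axis with the 95% counting interval for the 9 members with counts in both libraries, with TMM scaling (black) and corrected for GC content and length (grey). Dotted lines mark 1.5-fold, and the whole interval of EREG and of AREG lies above 1 in both versions.

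**Figure D4:**
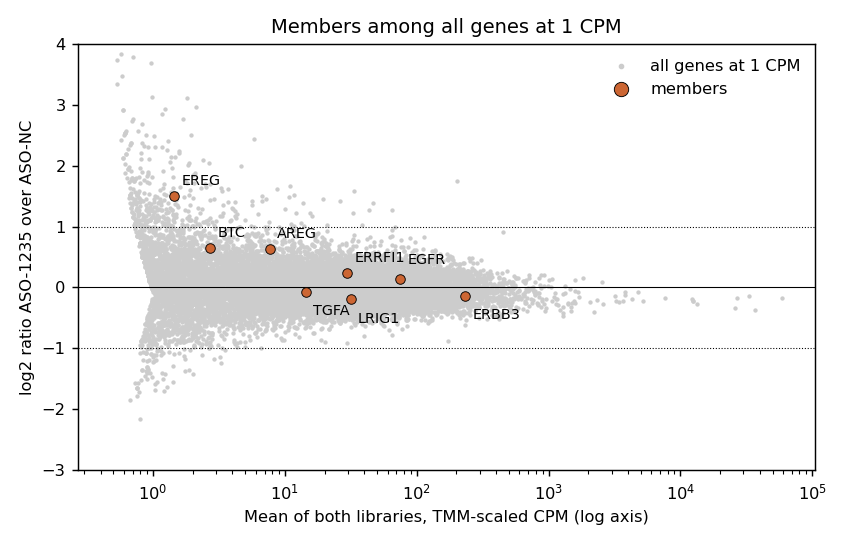
Log2 ratio against mean CPM on a log axis for the 14352 genes at 1 CPM (grey; 5 lie outside the axis range) and the 8 members among them (orange). EREG sits where ratios spread widest, and ERBB3 and EGFR where they spread least.

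EREG, AREG and BTC lie in the same part of chromosome 4, next to a cluster of chemokine genes. Of 43 genes within 1 Mb of EREG or AREG, 9 reached 1 CPM, and 5 of these were called at least 1.5-fold higher in ASO-1235 and 0 lower. The share called higher was 5.2% over all genes, and 15.0% and 6.72% in the 2 weakest classes of expression, which hold these 5. They were the 3 members, around which the region was drawn, CXCL8 and CXCL1, so of the 6 genes that are not members 2 were called. EREG and CXCL3 reached 1 CPM only in ASO-1235. CXCL8, the gene of interleukin 8, starts 625 kb before EREG and had 270 and 554 counts, a ratio of 2.45 (1.99 to 3.04). CXCL1, a chemokine gene with close copies, was at 1.62 (1.25 to 2.11) from 207 and 280 counts. CXCL3, another of these copies, had 34 and 48 counts (1.69, 0.870 to 3.35). The genes among them did not all share this. MTHFD2L, which lies between the chemokines and the ligands, had 333 and 280 counts, a ratio of 1.01 (0.797 to 1.27). RASSF6 was at 1.19 (0.926 to 1.53), PARM1 on the far side of BTC at 0.856 (0.659 to 1.11), and EPGN, 56.7 kb before EREG, at 0.769 (0.293 to 1.91).

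**Figure D5:**
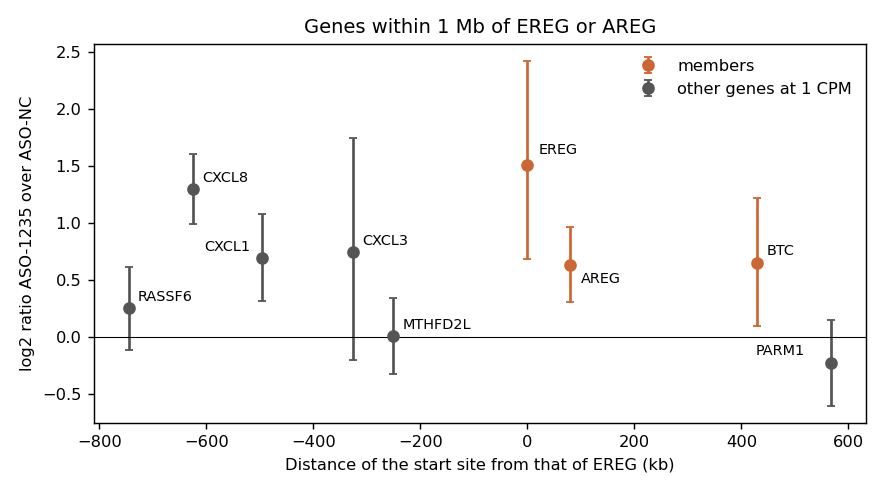
Log2 ratio with 95% counting interval against the distance of each start site from that of EREG, in kb, for the 9 genes at 1 CPM within 1 Mb of EREG or AREG. The members (orange), CXCL8 and CXCL1 have intervals above 0, and those of RASSF6, CXCL3, MTHFD2L and PARM1 include 0.

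Calls at 1.5-fold were few in each list of genes that act before and after the receptors. They ranged from 0 of 10 genes of ligand release to 4 of 18 ERK-induced genes called higher, with 0 lower in each list. A difference between these short lists was not tested. At this size 5.2% of all genes were called higher and 2.0% lower. Many of the listed genes had intervals that excluded 1. Of 13 genes of ligand release, 10 reached 1 CPM and 0 were called at 1.5-fold, with ratios from 0.846 for the protease gene ADAM15 to 1.28 (0.675 to 2.44) for ADAM12. ADAM17, which encodes the main protease for AREG and EREG and was named after its value was seen, had 2122 and 1740 counts, a ratio of 0.981 (0.895 to 1.07). Of 19 genes of receptor inhibition and turnover, which include ERRFI1 and LRIG1, 18 reached 1 CPM and NEDD4, a ubiquitin ligase gene, was alone in being called. It counted 1594 in ASO-NC and 2145 in ASO-1235, which gives 1.61 (1.47 to 1.77). With the GC and length trend removed that call was lost. At any size, 7 of the 18 intervals lay above 1 and 4 below, against 22.8% and 23.0% of all genes. The median log2 ratio of the 18 was 0.12, and -0.02 with the trend removed.

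Among 21 adaptors and effectors at the receptor, 20 reached 1 CPM and 0 were called. Of their intervals 10 lay above 1 and 3 below, against 22.8% and 23.0% of all genes. These shares take in genes of every level. The median log2 ratio of the 20 was 0.15, but 0.02 with the GC and length trend removed. Among the 20, the docking protein gene GAB1 was highest at 1.38 (1.24 to 1.55). The phospholipase gene PLCG1 was lowest at 0.763 (0.706 to 0.824). All 18 genes of the RAS, ERK and AKT core reached 1 CPM, and 0 were called lower. Of their intervals 9 lay above 1 and 5 below, against the same 22.8% and 23.0%. Their median log2 ratio was 0.09, and 0.08 with the trend removed. BRAF, a kinase between RAS and MEK, was at 1.60 (1.46 to 1.75) from 1702 and 2275 counts, which was under 1.5-fold with the trend removed. The kinase genes AKT1 and AKT2 were at 0.796 (0.765 to 0.827) and 0.802 (0.767 to 0.839), and were named after their values were seen.

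Of 18 genes that ERK signalling is known to induce, 4 were called higher at 1.5-fold and 0 lower, against 5.2% and 2.0% of all genes, with a median log2 ratio of 0.06. Of these 4, SPRY2 was in the weakest class of expression, where 15.0% of genes were called higher. FOS and SPRED1 were in the next class, where 6.72% were. EGR1, an immediate early transcription factor gene, had 1194 and 2403 counts, a ratio of 2.41 (2.18 to 2.66). SPRED1, which encodes an inhibitor of RAS signalling, was at 1.71 (1.36 to 2.16), or 1.45 (1.16 to 1.84) and no longer called with the trend removed. FOS was at 1.78 (1.28 to 2.50) from 126 and 188 counts. The feedback inhibitor gene SPRY2, named after its value was seen, was at 1.79 (1.22 to 2.65) from 94 and 141 counts. The others lay between 0.872 for the ERK phosphatase gene DUSP6 (0.779 to 0.977) and 1.31 for JUN (1.23 to 1.41). CCND1, the cyclin D1 gene, stood at 306 and 307 CPM.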

How the data were processed

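RNA of 2 HCC1954 libraries, grouped by genotype label, was analysed. The values deposited by the authors are raw gene counts without normalization, judging by whole numbers and unequal totals. Per the submitters' processing notes, the tools were STAR 2.7.11a and featureCounts 2.0.6 and the build hg38. Annotation release, strand setting and treatment of pairs were not given in the sources used here. For 1 gene ID the table had no counts, and it was left out. Coordinates, GC content and transcript lengths came from GENCODE 29 on GRCh38, which held 58206 of the 62699 IDs by ID without version.

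TMM factors (edgeR 4.0.16, R 4.3.3) of 0.971 and 1.03 were computed on the 14352 genes with 1 CPM or more in at least 1 library. edgeR served for scaling alone. A gene was called when it reached 1 CPM, differed by at least 2-fold or 1.5-fold and had a 95% interval (Clopper-Pearson, conditional on the total of the halved counts) that excluded 1. Log2 values carry a prior count of 0.5. Without molecular identifiers, PCR copies are counted as reads, so intervals cover counting error only. In simulated pair-counted libraries of ASO-1235 against ASO-NC with 14352 genes, 14152 genes were simulated without change. The truth lay inside the halved-count interval for 95.4% of them, and inside that on counts as deposited for 83.7%. At 2-fold, 67 of 67 genes changed by 3-fold, 33 of 66 by 2-fold and 1 of 67 by 1.5-fold were called. Of the unchanged genes, 31 were called. Both mates were counted in this simulation, so its design favours halved counts. It cannot decide whether halving suits the sequenced libraries, where not all counts were even.

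The members and gene lists were chosen with earlier results of these data known. Named were the members, the other ERBB receptors and ligands, up to 3 genes each way past 1.5-fold per pathway list or its highest and lowest ratio, and genes at 1 CPM within 1 Mb of EREG or AREG. Some genes this rule selects are not reported here. The trend on GC content and log2 length was a robust fit on splines with 5 degrees of freedom (statsmodels 0.14.6). Other alternatives were DESeq2 1.42.0 size factors, upper quartile and total count scaling, totals without mitochondrially encoded genes, other minimum levels, a prior count of 5 and exonic union length. Promoter sequence came from RefSeq (GRCh38.p14). Calculations used Python 3.11.15, scipy 1.17.1 and pandas 2.3.3.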

Additional observations from a re-analysis of the deposited data

How the results depend on the processing

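The member ratios were recomputed under the alternatives named in the methods that apply to them. So were the calls over members, pathway lists and all genes, and the median log2 ratios of members and lists. Member ranks and the ligand shares of AREG and TGFA were recomputed with exonic union length. The pair changes, the calls on chromosome 4 and the receptor shares were not recomputed. Nor were the shares by class of expression and the counts of intervals above or below 1. EREG was called at 2-fold and EREG and AREG at 1.5-fold under each alternative scaling, with counts as deposited, without the GC and length trend, and with no minimum. A minimum of 5 CPM removes EREG and BTC from the genes considered: 0 members were then called at 2-fold and 1 (AREG) at 1.5-fold, and of all genes 49 were higher and 1 lower at 2-fold and 279 higher and 101 lower at 1.5-fold. With that minimum, 1 ligand, 1 gene of the RAS, ERK and AKT core and 2 ERK-induced genes were called higher. With no minimum, 724 and 199 of all genes were called at 2-fold and 1126 higher at 1.5-fold, against 344, 71 and 746. Total count scaling gave a ratio of 0.963 for ERBB3, 180 in place of 287 genes lower at 1.5-fold, and a median log2 ratio of 0.23 in place of 0.15 for the adaptors. With the GC and length trend removed, 0 genes of receptor inhibition and 1 of the RAS, ERK and AKT core were called. Exonic union length in place of the longest transcript changed the rank of 0 members. No paired analysis was possible because each group has 1 library, and no library could be left out for the same reason. Depth limits HBEGF and NRG1, which had at most 28 and 4 counts.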
